A study of Anopheles stephensi with 4 samples.

Results

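In sugar-fed adult females of the malaria mosquito Anopheles stephensi, 238 of 12340 reference genes were high in midgut and Malpighian tubules together and low in fat body and ovary. They were chosen by their level: the lower of midgut and tubules (FPKM + 1) was at least 3 times the higher of fat body and ovary. FPKM values are fragment numbers corrected for transcript length and scaled per library, and their sums differ between the tissues, from 452542 (ovary) to 1272696 (midgut). A gene's level is the sum over the transcripts that match or overlap its annotated transcript on the same strand. The 4 tissues, midgut, Malpighian tubules, fat body and ovary, came from laboratory mosquitoes reared at 27 °C under a cycle of 12 h light and 12 h dark at a humidity of 70%. Each tissue was 1 paired-end library of total RNA, run on 2 lanes. No strain, age or number of pooled mosquitoes was given in the sources used here. Differences between tissues therefore compare these libraries, have no replicate check and carry no p-value. In such bulk samples, fewer cells of a type and less RNA per cell cannot be told apart.

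The midgut digests and absorbs the meal and is the first tissue that malaria parasites cross. The Malpighian tubules open into the gut behind the midgut and secrete the primary urine. Both are single-layered transporting epithelia with a brush border, and both are known in insects for ion transport, driven in large part by a proton pump, and for handling of foreign compounds. The fat body stores lipid and glycogen and makes many of the proteins of the hemolymph, and the ovary makes the eggs. None of the 238 genes can be given a name or role here, because 0 of the 12340 gene identifiers were found in the reference table of 15394 genes. They are described by identifier, position, level and transcript structure, and the tissue labels could not be checked against marker genes for the same reason.

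The 238 genes were 1.93% of all genes tested. The same rule for the other 5 pairs of tissues gave 152 genes for tubules and fat body (1.23%), 68 for midgut and fat body (0.551%), 63 for fat body and ovary (0.511%), 25 for tubules and ovary (0.203%) and 7 for midgut and ovary (0.0567%). Midgut with tubules was thus the pair with the most genes of its own with deposited FPKM. With the columns scaled to equal sums the pair gave 212 genes (1.72%) and stayed the largest, ahead of tubules and fat body (174, 1.41%), tubules and ovary (159, 1.29%), fat body and ovary (92, 0.746%), midgut and fat body (23, 0.186%) and midgut and ovary (11, 0.0891%).

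Most of these genes were abundant in the tissues that chose them. Their median level was 130 FPKM in midgut (interquartile range 51.4 to 338) and 81.1 FPKM in tubules (32.6 to 247), against 11.8 FPKM in fat body (3.62 to 32.9) and 4.07 FPKM in ovary (1.25 to 16.3). The medians of all 12340 genes were 3.02 FPKM in midgut, 4.06 FPKM in tubules, 4.62 FPKM in fat body and 4.92 FPKM in ovary. The rule leaves out genes silent in midgut or tubules, which sets part of this difference. Genes at 1 FPKM or more in both had medians of 15.1, 14.8, 14.5 and 15.0 FPKM in the same order. In midgut 136 of the 238 genes reached 100 FPKM and 28 reached 1000 FPKM, and in tubules 110 and 20 did. In fat body 19 genes reached 100 FPKM, in ovary 2, and none reached 1000 FPKM in either. As shares, 57.1% of the set reached 100 FPKM in midgut, 46.2% in tubules, 7.98% in fat body and 0.840% in ovary, against 8.69%, 6.87%, 7.75% and 3.79% of all genes in the same tissues. The fat body share was thus about that of any gene. With equal sums 120 genes of the set (50.4%) reached 100 in midgut and 146 (61.3%) in tubules, against 7.41% and 11.2% of all genes. In fat body and in ovary 20 genes each (8.40%) did, near the 8.31% and 10.2% of all genes. The set held 11.2% of the summed gene FPKM of midgut and 12.0% of that of tubules, against 0.852% of that of fat body and 0.828% of that of ovary. The rule asks for such a gap, so this contrast is not a separate result. Few genes weighed heavily in midgut: of the set's 133304 FPKM there, ASTEI02990 had 20791 and ASTEI05911 had 15953. Among the 100 most abundant genes of a tissue, 6 were of this set in midgut and 14 in tubules.

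**Figure D1:**
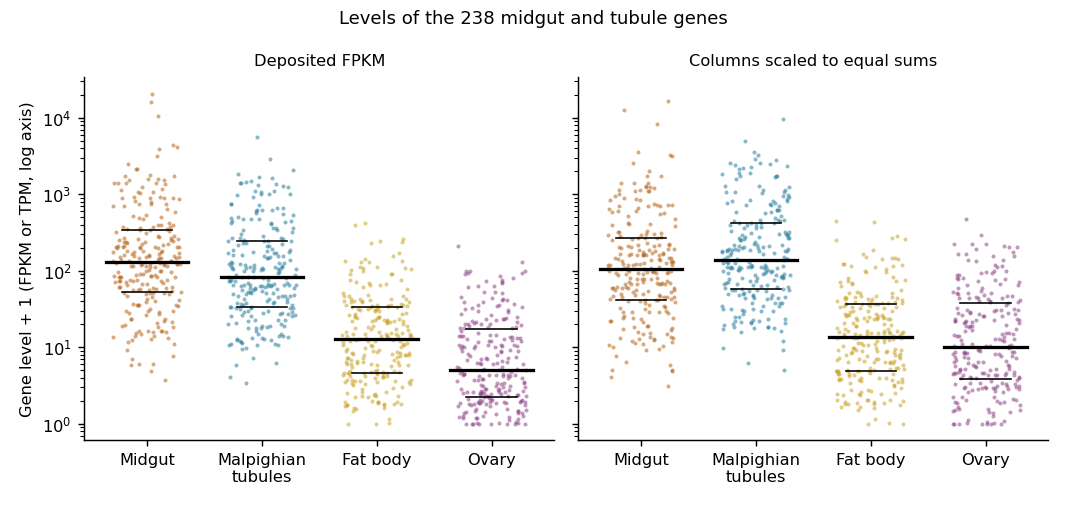
Level + 1 of each of the 238 midgut and tubule genes in midgut, Malpighian tubules, fat body and ovary, on a log axis, with deposited FPKM (left) and with columns scaled to equal sums (right). Each point is a gene, the thick bar is the median and the thin bars are the quartiles. The medians with deposited FPKM are 130, 81.1, 11.8 and 4.07; with equal sums they are 104, 140, 12.8 and 9.18.

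The genes with the highest geometric mean of midgut and tubules were ASTEI05911 (scaffold_00035, 30101 to 30934, minus strand, 2 exons) and ASTEI09451 (scaffold_00092, 581052 to 582672, plus strand, 4 exons). ASTEI05911 had 15953 FPKM (authors' bounds 15620 to 16286) in midgut and 5581 FPKM (5459 to 5704) in tubules, against 419 FPKM in fat body and 73.6 FPKM in ovary. It was the most abundant of the set in tubules, and its fat body level, the highest of the set there, was still 7.50% of its tubule level. A reference gene on the other strand overlaps it. ASTEI09451 had 10480 FPKM (10261 to 10698) in midgut and 1341 FPKM (1308 to 1373) in tubules, against 259 FPKM in fat body and 29.6 FPKM in ovary. Its midgut level was far above its tubule level, and both stood clear of the other tissues.

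The distance to the threshold varied widely. The ratio that defined the set had a median of 4.82: 125 genes lay between 3 and 5, 70 between 5 and 10, 37 between 10 and 20, and 6 above 20. The highest ratio, 26.6, was that of ASTEI09376, named after its values were seen (scaffold_00090, 35475 to 49197, plus strand, 11 exons). It had 173 FPKM (168 to 177) in midgut and 267 FPKM (261 to 274) in tubules, against 5.53 FPKM in fat body and 1.51 FPKM in ovary. Just inside the threshold were ASTEI01147 (ratio 3.001) and ASTEI09182 (3.01), and just outside it ASTEI00831 (2.996) and ASTEI10952 (2.996). ASTEI01147 had 56.3 FPKM in midgut and 108 FPKM in tubules, against 18.1 FPKM in fat body and 16.8 FPKM in ovary. ASTEI00831 had 34.03 FPKM in midgut and 48.1 FPKM in tubules, against 10.7 FPKM in fat body and 3.31 FPKM in ovary.

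Precision was good for most of the set, in terms of sequencing alone. The authors' bounds spanned a median of 11.3% of the level to either side in midgut and 14.8% in tubules. The median gene had about 4931 fragments, as estimated from the steps in the deposited signal, in midgut, 7779 in tubules, 732 in fat body and 424 in ovary. Under 20 fragments stood behind 2 genes in midgut, 0 in tubules, 8 in fat body and 20 in ovary. For 234 of the 238 genes the lower bounds in midgut and tubules both lay above the upper bounds in fat body and ovary, and for 133 they did so by a ratio of 3 or more. For 1 gene the deposited tubule estimates carry a failed status and no usable bounds.

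Scaling the columns to equal sums changed the set as well. Of the 238 genes, 171 (71.8%) held with the columns scaled to equal sums, and they made up 80.7% of the 212 genes found that way. The 171 genes had a median ratio of 6.49 with deposited FPKM and a median ovary level of 2.89 FPKM. The 67 genes that did not hold had a median ratio of 3.49 and a median ovary level of 13.3 FPKM. In 54 of these 67 genes ovary was the higher of fat body and ovary after scaling, and in 64 midgut was then the lower of midgut and tubules. Of the 113 genes with a ratio of 5 or more, 103 held. The 41 genes gained had a median ratio of 2.48 with deposited FPKM, and all 41 had tubules as the lower of the pair. With bounds and equal sums together, 96 of the 238 genes passed the ratio under both scalings.

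Levels in midgut and tubules lay within 2-fold of each other for about as many genes as not. On the log2(FPKM + 1) scale, 127 of the 238 genes (53.4%) lay within 2-fold, 83 (34.9%) were 2-fold or more higher in midgut, and 28 (11.8%) were 2-fold or more higher in tubules. Of the 8045 genes with 1 FPKM or more in either tissue, 15.1% were 2-fold or more higher in midgut, 17.4% were 2-fold or more higher in tubules, and 32.5% fell in either class. Differences of 2-fold or more were found in 46.6% of the set with deposited FPKM, and most of them ran towards midgut, a direction that turned with equal sums. A 5-fold difference was reached by 26 genes (10.9%) towards midgut and 6 (2.52%) towards tubules, against 4.14% and 5.2% of the 8045 genes. With equal sums this split turned as well, to 9 genes (3.78%) towards midgut and 20 (8.40%) towards tubules, against 2.62% and 11.5% of the 8045 genes.

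For the 238 genes, the direction of this balance depended on the scaling. The median log2 difference of midgut over tubules was 0.37 for the set, 0.13 for the 7031 genes at 1 FPKM or more in both tissues, and 0.36 for the 2239 other genes at 20 FPKM or more in both. The set was thus about as tilted towards midgut as other abundant genes were. Equal sums shifted the log2 difference of abundant genes by -1.11. The medians then became -0.69 for the set, -0.86 for genes at 1 FPKM or more in both, and -0.73 for other genes at 20 FPKM or more in both. With equal sums 82 of the 238 genes were higher in midgut, against 152 with deposited FPKM, and these 82 were higher in midgut under both scalings. Then 31 genes (13.0%) were 2-fold or more higher in midgut, against 5.66% of the 8045 genes, and 91 genes (38.2%) were 2-fold or more higher in tubules, against 46% of the 8045 genes. In either class were 122 genes (51.3%), close to the 51.7% of the 8045 genes. All these equal-sum counts are for the 238 genes chosen with deposited FPKM. When the choice was also made with equal sums, 114 of the 212 genes found were higher in midgut.

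**Figure D2:**
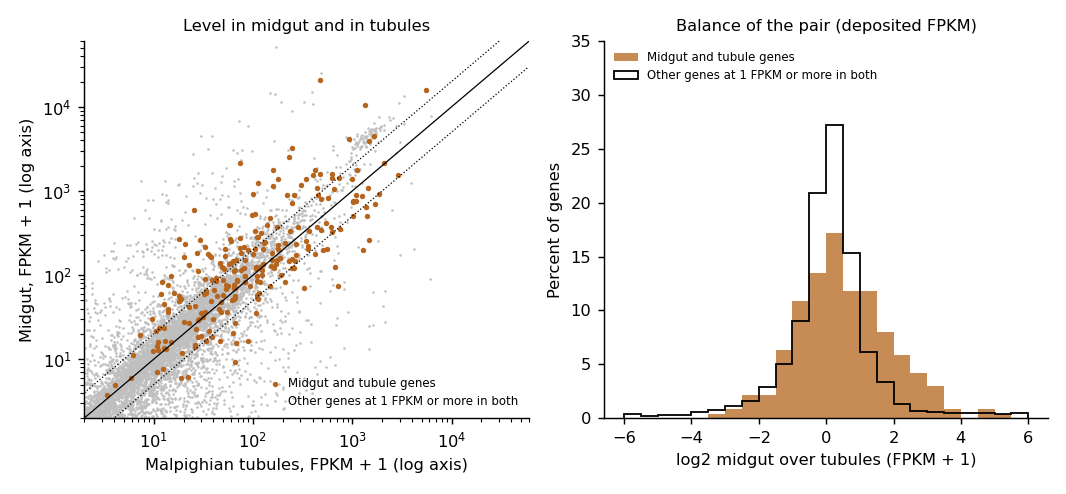
Left: midgut against Malpighian tubule level (FPKM + 1, log axes) of the 238 midgut and tubule genes and of the other genes at 1 FPKM or more in both; the solid line marks equal levels and the dotted lines 2-fold. Right: percent of genes by log2 midgut over tubules, with values beyond 6 in the end bins. With deposited FPKM 83 of the 238 genes lie at 2-fold or more towards midgut and 28 towards tubules; with equal sums, not drawn, these numbers are 31 and 91.

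Towards midgut, ASTEI02990 (scaffold_00012, 1260982 to 1269489, minus strand, 6 exons) and ASTEI09414 (scaffold_00091, 555181 to 555987, plus strand, 1 exon) had the largest differences. ASTEI02990 had 20791 FPKM (17757 to 23825) in midgut and 470 FPKM (447 to 493) in tubules, against 134 FPKM in fat body and 60.2 FPKM in ovary. Its tubule level was 2.26% of its midgut level, and its log2 difference was 5.46, or 4.36 with equal sums. An assembled transcript on the opposite strand at this gene, ANSTF.2803.1, had 267 FPKM in midgut and 8.89 FPKM in tubules. ASTEI09414 had 2179 FPKM (2135 to 2223) in midgut and 73.5 FPKM (64.8 to 82.1) in tubules, against 21.2 FPKM in fat body and 5.30 FPKM in ovary. Its tubule level was 3.37% of its midgut level, with a log2 difference of 4.87, or 3.77 with equal sums. Both genes passed the ratio under both scalings, with midgut far above every other tissue, but with the authors' bounds their ratios were 2.78 and 2.51, under the threshold.

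Levels of this kind can be set beside genes of midgut alone. Of 246 genes with FPKM + 1 in midgut at least 5 times that in each other tissue, 26 were of this set, and the other 220 had a median tubule level of 4.04% of the midgut level. The tubule level of 2 genes of the set, ASTEI02990 and ASTEI09414, lay at or below that share, and the median over all 238 genes was 76.6%. Of 145 genes 5-fold or more higher in tubules than in each other tissue, 6 were of this set. The other 139 had a median midgut level of 2.30% of the tubule level, and 0 of the 238 genes lay at or below that share. The rule uses the levels of both tissues, so low shares among genes that failed it are partly set by the choice. The difference from the set is therefore not a separate result. The part of RNA carried between the tissues in dissection in these values was not tested.

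Towards tubules, ASTEI01057 (scaffold_00004, 653958 to 656124, minus strand, 8 exons) and ASTEI03070 (scaffold_00013, 251248 to 253131, minus strand, 2 exons) had the largest differences. ASTEI01057 had 73.7 FPKM (66.4 to 81.1) in midgut and 724 FPKM (707 to 741) in tubules, against 8.92 FPKM in fat body and 3.17 FPKM in ovary. Its midgut level was 10.2% of its tubule level, with a log2 difference of -3.28, or -4.38 with equal sums. ASTEI03070 had 8.28 FPKM (7.33 to 9.30) in midgut and 64.4 FPKM (62.4 to 66.5) in tubules, against 0.949 FPKM in fat body and 0.475 FPKM in ovary. It lay below 1 FPKM in fat body and ovary and was low in midgut, at 12.9% of its tubule level.

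With deposited FPKM fat body was usually the next tissue after the pair. Its level was above that of ovary for 207 of the 238 genes (87.0%) and below it for 29, and 2 genes were listed at 0 in both. The median level was 16.5% of the lower of midgut and tubules in fat body (interquartile range 9.62 to 23.8) and 5.79% in ovary (2.43 to 13.1). Fat body was 2-fold or more above ovary in 107 genes (45.0%) and ovary 2-fold or more above fat body in 1 (0.420%). Of the 8603 genes with 1 FPKM or more in either, 28.2% and 25.2% were, and of the other genes at 20 FPKM or more in midgut and tubules, 40.4% and 7.59%. Equal sums changed these counts to 50 genes (21.0%) with fat body 2-fold or more above ovary and 30 (12.6%) with the reverse, against 16.7% and 50.3% of the 8603 genes and 16.1% and 29.3% of the other abundant genes. Among the other genes at 20 FPKM or more in midgut and tubules, fat body was above ovary in 71.7%, and among all genes in 44.0%. The full order was midgut, tubules, fat body, ovary in 137 genes (57.6%), and tubules, midgut, fat body, ovary in 72 (30.3%). These orders include the 2 genes listed at 0 in both fat body and ovary. Ovary came before fat body in 15 genes led by midgut and 14 led by tubules.

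With equal sums, fat body was above ovary in 134 of the 238 genes (56.3%), against 39.1% of the other genes at 20 FPKM or more in midgut and tubules and 28.1% of all genes. The scaling shifted the log2 difference of fat body over ovary by -1.05 in abundant genes. The median of this difference for the set was 0.87 with deposited FPKM and 0.21 with equal sums, against 0.70 and -0.33 for the other genes at 20 FPKM or more in the pair. The 134 genes had fat body above ovary under both scalings. The rest of the 207 genes with fat body above ovary in deposited FPKM no longer had this order with equal sums. When the choice was also made with equal sums, 157 of the 212 genes found had fat body above ovary. The share with fat body above ovary was larger in the set than in the compared genes under each scaling.

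**Figure D3:**
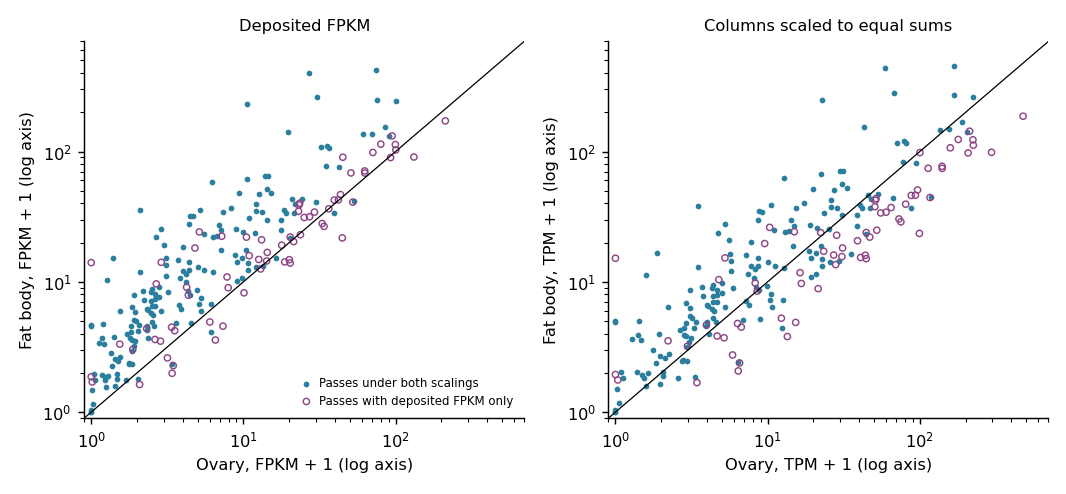
Fat body against ovary level (+ 1, log axes) of the 238 midgut and tubule genes, with deposited FPKM (left) and with columns scaled to equal sums (right); the line marks equal levels. Filled points are the 171 genes that pass the ratio under both scalings and open points the 67 that pass with deposited FPKM only, most of which lie below the line on the right.

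Most of these genes were also found outside midgut and tubules. Fat body had 217 of the 238 genes at 1 FPKM or more and ovary 186, and 183 reached this level in all 4 tissues. As shares these were 91.2%, 78.2% and 76.9%, against 65.8%, 62.8% and 53.8% of all genes, and nearly all of the other genes at 20 FPKM or more in midgut and tubules reached 1 FPKM in all 4 tissues (99.6%). Both fat body and ovary lay below 1 FPKM for 18 genes (7.56%), ovary alone for 34 (14.3%) and fat body alone for 3 (1.26%). Of all genes, 30.3%, 6.93% and 3.95% did. With equal sums these numbers were 13 (5.46%), 15 (6.30%) and 4 (1.68%), against 27.9%, 4.75% and 5.73% of all genes. The count for ovary alone thus depended on the scaling. The genes with the highest fat body level were ASTEI05911 and ASTEI09782. ASTEI09782 (scaffold_00103, 181754 to 185776, minus strand, 3 exons) had 3979 FPKM in midgut and 1475 FPKM in tubules, against 400.5 FPKM in fat body and 25.9 FPKM in ovary. Its fat body level was 27.1% of its tubule level, and its ovary level 1.75%.

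The genes with the highest ovary level were ASTEI08956 (scaffold_00079, 660493 to 662382, minus strand, 5 exons) and ASTEI04698 (scaffold_00025, 326894 to 328154, minus strand, 6 exons). ASTEI08956 had 925 FPKM in midgut and 1875 FPKM in tubules, against 171 FPKM in fat body and 211 FPKM in ovary. ASTEI04698 had 805 FPKM in midgut and 485 FPKM in tubules, against 89.8 FPKM in fat body and 131 FPKM in ovary. Ovary was the next tissue for both. With equal sums their ratios fell to 1.55 and 2.18, against 4.37 and 3.68 with deposited FPKM, so that neither passed.

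Gene structure was not used to choose the set. The annotated transcripts had a median of 4 exons (interquartile range 3 to 6), against 3 for all genes (2 to 5) and 3 for the other genes at 20 FPKM or more in midgut and tubules (2 to 5). A single exon was found in 16 of the 238 genes (6.72%), against 15.0% of all genes and 10.3% of the other abundant genes. Genes with 10 exons or more made up 9.24% of the set, 6.21% of all genes and 5.09% of the other abundant genes. The median transcript was 1320 bases long, against 1186 bases for all genes and 1119 bases for the other abundant genes, and lay below the 1371 bases of genes at 1 FPKM or more in both tissues. Spliced genes of the set had a median of 852 bases of intron, against 481 bases for all genes and 486 bases for the other abundant genes. The 152 genes of tubules and fat body had a median of 3.5 exons and 947.5 bases of intron in spliced genes, so that longer introns were not seen in the midgut and tubule genes alone.

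**Figure D4:**
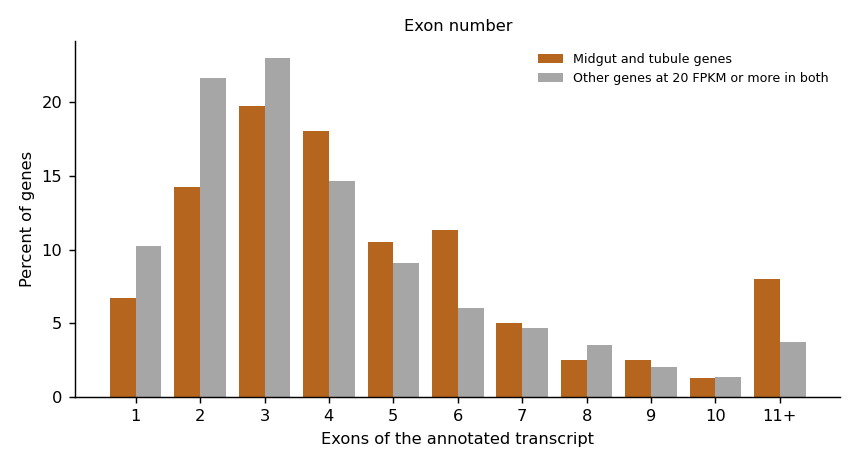
Percent of genes by number of exons of the annotated transcript, for the 238 midgut and tubule genes and for the 2239 other genes at 20 FPKM or more in midgut and Malpighian tubules. Genes with 1 or 2 exons make up 6.72% and 14.3% of the set, against 10.3% and 21.7% of the other genes, and genes with 11 exons or more 7.98%, against 3.75%.

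Length varied with level within the set, as it did among all genes expressed in both tissues. The median transcript of those genes had 1371 bases at 1 FPKM or more in both and 1126.5 bases at 20 FPKM or more in both. In the 60 genes with the lowest geometric mean of midgut and tubules the median transcript had 1431 bases, and in the 60 with the highest 1068 bases, with a median of 4 exons in each. The genes with the most exons were ASTEI06403 (scaffold_00040, 52458 to 73704, minus strand, 29 exons) and ASTEI00428 (28 exons, described with its isoforms). ASTEI06403 had 50.5 FPKM (48.4 to 52.7) in midgut and 18.0 FPKM (15.8 to 20.2) in tubules, against 1.46 FPKM in fat body and 0.492 FPKM in ovary. Its annotated transcript has 10224 bases, and its ratio was 7.70, or 12.3 with equal sums.

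The longest genes of a single exon were ASTEI002180 (scaffold_00001, 3603168 to 3605894, minus strand, 2727 bases) and ASTEI00587 (scaffold_00002, 4089539 to 4091188, plus strand, 1650 bases). ASTEI002180 had 25.7 FPKM in midgut and 21.6 FPKM in tubules, against 4.93 FPKM in fat body and 0.544 FPKM in ovary. ASTEI00587 had 715 FPKM (696 to 734) in midgut and 247 FPKM (239 to 255) in tubules, against 22.2 FPKM in fat body and 4.47 FPKM in ovary. ASTEI002180 was nearly even between midgut and tubules with deposited FPKM, at a log2 difference of 0.24, and higher in tubules with equal sums, at -0.83, while ASTEI00587 was higher in midgut with both scalings. ASTEI00587 shares its assembled gene with another reference gene, so part of its level may belong there.

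Neighbours were counted as the next reference gene on either side on the same scaffold. Of the 238 genes, 24 (10.1%) lay next to another gene of the set, against 3.52% of the other genes. They formed 11 runs, 9 of 2 genes and 2 of 3 genes. The 13 adjacent pairs had a median gap of 317 bases, against 3082 bases over 11360 adjacent pairs of all genes, and 7 pairs were in the same orientation, 5 tail to tail and 1 head to head. In 5 of the 11 runs the genes shared an assembled gene, and their FPKM may be divided between them by the estimation. These were also the 5 runs with all genes on 1 strand, so the orientations and short gaps partly reflect shared assembled genes. Among pairs in different assembled genes, only ASTEI09413 and ASTEI09414 were in the same orientation, and gaps ran from 122 to 29668 bases. Counting only neighbours in different assembled genes, an alternative chosen after seeing the data, left 13 genes (5.46%), against 3.29% of the other genes. The set was spread over 114 of the 988 scaffolds that hold a gene, and the most on a scaffold were 13 of 381 genes (3.41%) on scaffold_00001.

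Other genes next to the set had about the ratio of genes elsewhere. The median ratio of the 426 other genes next to a gene of the set was 0.742, close to the 0.706 of all other genes. A ratio of 2 or more was found in 11 of them (2.58%), against 1.65% of all other genes.

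The run on scaffold_00091 (554282 to 558500) held 3 genes in separate assembled genes within 4219 bases, and they differed in balance. ASTEI09413 (plus strand, 1 exon) had 175 FPKM (157 to 193) in midgut and 424 FPKM (383 to 465) in tubules, against 14.2 FPKM in fat body and 2.08 FPKM in ovary. ASTEI09414, 203 bases away on the same strand and also of 1 exon, was the gene of 2179 FPKM in midgut and 73.5 FPKM in tubules. ASTEI09415 (minus strand, 3 exons) had 14.9 FPKM in midgut and 14.0 FPKM in tubules, against 0.551 FPKM in fat body and 0.256 FPKM in ovary. Within one short stretch, one gene was higher in tubules, one far higher in midgut and one even, with deposited FPKM. With equal sums ASTEI09415 was instead higher in tubules, with a log2 difference of -0.96, while the other two kept their direction.

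The run on scaffold_00107 (154706 to 165396) held 3 genes on the plus strand that shared 1 assembled gene, so their levels are uncertain. ASTEI09928 (3 exons) had 53.2 FPKM (31.5 to 74.8) in midgut and 17.5 FPKM (9.85 to 25.1) in tubules, and was listed at 0 in fat body and ovary. ASTEI09929 (4 exons) had 19.6 FPKM (13.2 to 28.5) in midgut and 62.5 FPKM (49.7 to 75.3) in tubules, against 3.48 FPKM in fat body and 2.37 FPKM in ovary. ASTEI09930 (2 exons) had 82.3 FPKM (70.2 to 94.4) in midgut and 209 FPKM (201 to 216) in tubules, against 11.2 FPKM in fat body and 3.02 FPKM in ovary. The first was higher in midgut and the other two in tubules. With equal sums ASTEI09929 no longer passed the ratio (2.63).

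Isoform use was examined in the 234 genes of the set at 5 FPKM or more in midgut and tubules. An isoform counted as expressed at 1 FPKM and 10% of its gene. In midgut or tubules 128 of the 234 genes (54.7%) had 2 or more expressed isoforms. The share was 45.8% in the 4817 other genes at 5 FPKM or more in both tissues. Among the 2239 other genes at 20 FPKM or more in both it was 45.7%. The main isoform, that of highest FPKM, held a median of 87.8% of the gene level in midgut and 85.3% in tubules. In the 4817 other genes it held 97.1% and 97.0%. It was the annotated transcript in 117 of the 234 genes in midgut and 116 (49.6%) in tubules, against 55.7% and 54.4% of the other genes. The rest were assembled transcripts that share a splice junction or exon with the annotated one.

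The main isoform differed between midgut and tubules in 26 of the 156 genes with 2 or more isoforms (16.7%), against 15.4% of such other genes. A different isoform held at least 60% of the gene in each tissue in 9 genes (5.77%), against 43 other genes (1.52%). A shift in isoform share of 50 points or more was found in 8 genes (5.13%), against 2.48% of the others. In 19 of the 26 genes the main isoforms of midgut and tubules carried different labels for the transcription start, which belong to transcript models and were not measured. Fat body, where it reached 5 FPKM, shared the main isoform of tubules in 93 of 111 genes (83.8%) and that of midgut in 86 (77.5%), against 84.7% and 82.1% of 2675 other genes.

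The sum over isoforms decided membership for some genes. Of 130 genes with 2 or more isoforms expressed in either tissue, every such isoform passed the ratio by itself in 57, some did in 64 and none did in 9. The annotated transcript alone passed in 153 of the 238 genes. In 116 genes outside the set a transcript passed the ratio although the gene sum did not, and in 96 of them this transcript had 5 FPKM or more in midgut and tubules.

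ASTEI00428 (scaffold_00002, 1093249 to 1115770, plus strand) had the largest shift in isoform share. The gene had 262 FPKM (253 to 271) in midgut and 1479 FPKM (1442 to 1515) in tubules, against 24.2 FPKM in fat body and 7.95 FPKM in ovary. ANSTF.386.1 (1092655 to 1103852, 11 exons) had 9.02 FPKM (6.55 to 11.5) in midgut and 1425 FPKM (1395 to 1456) in tubules, 3.44% and 96.4% of the gene, against 18.3 FPKM in fat body and 5.39 FPKM in ovary. ANSTF.386.3 (1106325 to 1116134, 20 exons) had 247 FPKM (241 to 253) in midgut and 33.4 FPKM (30.2 to 36.7) in tubules, 94.2% and 2.26% of the gene, against 2.60 FPKM in fat body and 1.59 FPKM in ovary. The spans of these transcripts do not overlap, and only the annotated transcript of 28 exons, at 6.29 FPKM in midgut and 19.6 FPKM in tubules, joins them. An opposite-strand transcript at this gene, ANSTF.387.1, had under 5 FPKM in midgut and in tubules. The gene's level thus came from 2 stretches, one high in tubules and one high in midgut. The second passed the ratio by itself and the first did not, so the gene's place in the set did not need both. Non-overlapping main isoforms were found in 13 of 433 other genes whose main isoform differed and in 3 genes of the set. Besides ASTEI00428, the genes of the set were ASTEI06003 and ASTEI07888, named after their values were seen. In neither of them did an expressed isoform pass the ratio by itself.

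ASTEI05012 (scaffold_00027, 1009218 to 1028621, plus strand) had the next largest shift. The gene had 155 FPKM (144 to 166) in midgut and 246 FPKM (231 to 263) in tubules, against 20.7 FPKM in fat body and 43.6 FPKM in ovary. ANSTF.4663.5 (990644 to 1030682, 8 exons) held 92.8% of the gene in midgut, where it had 144 FPKM (138 to 149), while in tubules it was listed at 0. ANSTF.4663.3 (990630 to 1030688, 7 exons) held 82.6% in tubules, at 204 FPKM (198 to 210), and 1.27% in midgut, against 72.8% in fat body and 11.4% in ovary. In ovary ANSTF.4663.6 (1008452 to 1030688, 6 exons) held 85.6%, with 37.4 FPKM (32.9 to 41.9), while in midgut it was listed at 0 and in tubules it held 5.70%. The isoforms of midgut and tubules carried the same label for the transcription start and overlap over nearly their whole span, unlike those of ASTEI00428. The annotated transcript was listed at 0 in every tissue, and no expressed isoform of the gene passed the ratio by itself. With equal sums the gene did not pass either (ratio 1.26).

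**Figure D5:**
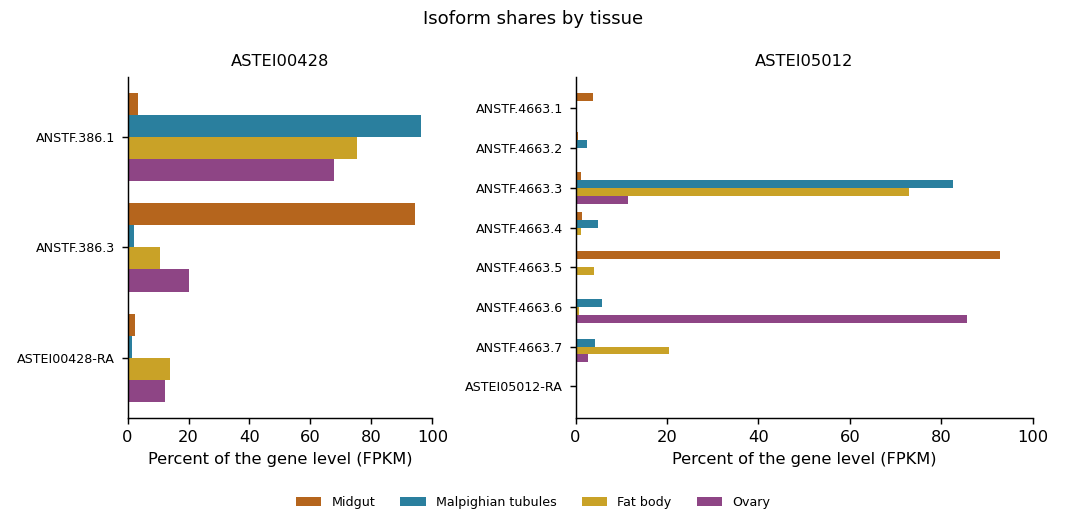
Share of the gene level (percent of FPKM) held by each isoform of ASTEI00428 and ASTEI05012 in midgut, Malpighian tubules, fat body and ovary. In both genes the isoform that holds over 90% in midgut holds under 3% in tubules, and in ASTEI05012 the main isoform of ovary holds 85.6%.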

How the data were processed

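RNA of 4 tissues was sequenced, each in 1 library run on 2 lanes. The submitters' processing notes name CASAVA 1.8, HISAT2, StringTie 1.2.1 and Cuffdiff. Positions are 1-based scaffold coordinates from the deposited annotation, whose genome build is not given in the sources used here. The authors deposited FPKM per transcript and tissue with lower and upper bounds and a status, per the file headers. They also deposited a fragment signal on a scaled axis, not raw counts. Its low values repeat at 2 amounts per tissue, whose origin was not tested. Taking their mean as the worth of 1 fragment, an assumption, gave 27490192 estimated fragments in midgut, 36316831 in tubules, 34840907 in fat body and 34830892 in ovary. No count test was run, since each tissue has 1 library.

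Class codes were taken from the annotation, because the FPKM table leaves them blank. Gene levels are sums over the classes of matching, junction-sharing, same-strand overlapping and single-exon partly intronic transcripts (=, j, o, e). Gene bounds are sums of transcript bounds. Scaling to equal sums gave reference, intergenic and repeat-class transcripts of each tissue 1000000 in all, because the deposited FPKM sums differ from 452542 (ovary) to 1272696 (midgut). Whether strand was kept in sequencing is not stated, so a gene and an overlapping one on the other strand may share fragments.

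Members and lists were chosen with earlier results of these data known. Named genes are the top 2 in each direction of each description (level, balance, fat body and ovary level, threshold, exons, runs, isoform shift), since identifiers could not be paired with names. The lists of tissue markers and transport, digestive and detoxification genes could not be used for the same reason. Alternatives covered scaling, pseudocount, ratio, class codes, status, a filter on low levels, bounds, neighbours and isoform limits. The rule was tested on simulated data with planted differences and counting noise only. That does not check the calls made from 1 library per tissue. Python 3.11.15 with pandas 2.3.3 was used.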

Additional observations from a re-analysis of the deposited data

Results flagged for a closer look

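Signal of the same kind appeared in transcripts that the gene sums leave out. Of 2432 intergenic loci, 48 (1.97%) passed the same ratio, 36 of them with 1 exon, and with equal sums 41 did. This share was close to the 1.93% of reference genes. The most abundant was ANSTF.11953 (scaffold_16269, 272 to 646, up to 2 exons), at 335.8 FPKM (authors' bounds 295 to 376) in midgut and 499 FPKM (443 to 555) in tubules, against 48.7 FPKM in fat body and 21.1 FPKM in ovary. ANSTF.12017 (scaffold_17179, 11 to 622, 1 exon) had 333.1 FPKM (300 to 366) in midgut and 469 FPKM (423 to 515) in tubules, against 102 FPKM in fat body and 11.7 FPKM in ovary. Of 264 transcripts antisense to a reference gene, 9 (3.41%) passed, and 3 of these lie at genes of the set. In the remaining classes, 3 of 82 intronic (3.66%), 3 of 324 past gene ends (0.926%) and 2 of 350 in repeats (0.571%) passed.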

How the results depend on the processing

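The set numbered 238 genes, and between 176 and 300 with equal sums, median-ratio scaling, a pseudocount of 0.1 FPKM, other class codes, status OK or a mean level of 10 FPKM. It numbered 129 with a pseudocount of 10 FPKM, 438 at a ratio of 2, 113 at a ratio of 5 and 133 with bounds. Under these 4 settings, 78, 278, 70 and 81 genes were higher in midgut than in tubules, and 114, 359, 102 and 122 had fat body above ovary. Of the 212 genes chosen with equal sums, 114 were higher in midgut and 157 had fat body above ovary. With deposited FPKM these were 152 and 207 of the 238 genes. Median-ratio scaling kept 234 of the 238 genes, and equal sums 171. The median-ratio divisors ran only from 0.918 (tubules) to 1.03 (midgut), so that scaling changed the columns little and was a weak check. Chosen after seeing the data, 201 genes had no other reference gene in their assembled gene, and 229 had at least 1 expressed isoform that passed by itself. The 24 genes next to another were 13 without shared assembled genes. The 26 genes with another main isoform were 9 at 60% in each tissue. Of 21 named genes, 16 held with equal sums and 13 with bounds. No paired analysis was possible because each tissue had 1 library. Depth limits fat body and ovary values under 20 estimated fragments.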
